A study of Homo sapiens with 26 samples.

Results

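The genes described here encode the core machinery of mitochondrial fusion, fission and transport. The 10 members were taken by name out of 60663 genes in the RNA-seq files and 58849 entries in the ribosome profiling files. They are the fusion GTPases MFN1, MFN2 and OPA1, the fission GTPase DNM1L (DRP1), its outer membrane receptors FIS1, MFF, MIEF1 (MiD51) and MIEF2 (MiD49), and the transport GTPases RHOT1 and RHOT2 (Miro1 and Miro2). Mitochondria fuse when mitofusins join outer membranes and OPA1 joins inner membranes. They divide when cytosolic DNM1L is recruited by its receptors and constricts the organelle, and they travel on microtubules through Miro proteins, which couple them to motor adaptors. All members are encoded in the nucleus and translated by cytosolic ribosomes, and every one except DNM1L makes a protein held in a mitochondrial membrane.

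The cells were HEK293T, an established human embryonic kidney line, in which endogenous RPL29, found in the large ribosomal subunit, carried an Avi tag. LOV-BirA, a biotin ligase that works under blue light, biotinylates tagged ribosomes near it. In ribosome profiling, LOV-BirA sat at the ER through Sec61β, at the outer mitochondrial membrane (OMM) through the transmembrane domain of OMP25, or free in the cytosol. Each location had 2 replicates, each giving 1 total input library and 1 streptavidin pulldown library per lysate, all with cycloheximide (CHX), an inhibitor of translation elongation. In RNA-seq, intact mRNA was recovered with the OMM ligase from lines null for AKAP1 or LARP4, 2 replicates each. It was also recovered from a WT line made with a negative control gRNA, in 2 replicates. Cells without CHX gave 1 replicate, and their label names no genotype. LOV-BirA came from a lentivirus in polyclonal cells, under the SFFV promoter for the ER and EF1α elsewhere. Each null genotype is 1 monoclonal line, so a difference between clones and an effect of the lost gene cannot be told apart. AKAP1 is an RNA-binding anchor protein of the OMM, and LARP4 is an RNA-binding protein that AKAP1 can hold there. CHX in the null lines is taken from the general protocol, and labelling without CHX was shorter. Whether replicates came from separate cultures is not stated for every library, so the p-values measure the spread between these libraries.

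Coding sequence (CDS) counts ran from 1025114 to 19539527 per ribosome profiling library, lowest in the OMM pulldown of replicate 1, and RNA-seq totals from 38347615 to 100840544 counts. PAX2, LHX1, NEFM and NEFL, which HEK293T cells are known to express, were detected in all 7 RNA-seq total inputs, with NEFL at 17.2 to 33.1 RPKM, while the leukocyte marker PTPRC had at most 2 counts, the endothelial marker CDH5 at most 2 and the hepatocyte marker ALB at most 8. AKAP1 mRNA stood at 115 and 119 CPM (counts scaled to the library total) in the WT total inputs and at 32.2 and 20.3 in the AKAP1 null ones. LARP4 mRNA stood at 225 and 231 CPM in WT and at 79.3 and 74.0 in the LARP4 null line. By the run names in the files, the pulldown and total input of cytosol replicate 1 were sequenced in different runs, and cytosol replicate 2 was sequenced apart from all other libraries.

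The proteins differ in how they sit in the membrane. In translations of the GENCODE 44 canonical transcripts (GRCh38), the most hydrophobic stretch of 19 residues ended 7 residues before the C-terminus of FIS1 (152 aa), 2 before that of MFF (291 aa) and 3 before those of RHOT1 (659 aa) and RHOT2 (618 aa), the layout of tail-anchored proteins. In MIEF1 (463 aa) and MIEF2 (454 aa) it lay near the N-terminus, at residues 29 to 47 and 30 to 48. In MFN1 (741 aa) and MFN2 (757 aa) it ended 124 and 121 residues before the end. The paralogs MFN1 and MFN2 shared 63.5% of 735 aligned residues, RHOT1 and RHOT2 60.6% of 614, and MIEF1 and MIEF2 48.2% of 448. The last 30 coding bases of the tail-anchored members are shown because 2 of these genes were enriched at the OMM and the other 2 were not. Capitals mark the stop codon, and each stretch lies within 1 exon.

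FIS1, chr7:101239806-101239835, minus strand: ggacttgctgtgtccaagtccaaatccTGA
MFF, chr2:227357088-227357117, plus strand: cttaatagctggctctggtttcgccgcTAG
RHOT1, chr17:32224704-32224733, plus strand: atgtacaaagcattattgaaacagcgaTGA
RHOT2, chr16:673577-673606, plus strand: ctctacagggtcctggtgaagagccagTGA

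The abundance of the members spread over more than an order of magnitude. In mRNA per length, MIEF1 led with 32.1 ± 1.46 RPKM (SD, n = 7 total inputs, all genotypes), followed by DNM1L at 25.6 ± 1.08 and FIS1 at 21.7 ± 4.30. MFN2 had 18.3 ± 2.12 RPKM, OPA1 17.8 ± 0.801, MFN1 14.8 ± 1.10 and MFF 13.5 ± 0.930. The Miro mRNAs were lower, with RHOT2 at 6.95 ± 1.13 and RHOT1 at 5.82 ± 1.46 RPKM, and MIEF2 was lowest at 1.91 ± 0.348. The ranges of neighbours overlapped for DNM1L and FIS1, FIS1 and MFN2, MFN2 and OPA1, MFN1 and MFF, and RHOT2 and RHOT1. The lowest FIS1 value, 13.5 RPKM, was that of the LARP4 null replicate 1, and the library without CHX had the highest RHOT1 value (8.97) and the lowest RHOT2 (4.73) and MFN2 (13.7) values.

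Footprints gave another order. Per length over all exons, FIS1 led with 39.6 ± 6.18 RPKM (SD, n = 6 total inputs), ahead of DNM1L at 19.3 ± 3.38 and RHOT2 at 11.1 ± 2.48. MIEF1, first in mRNA, was eighth in footprints at 3.71 ± 0.757 RPKM, above RHOT1 (3.53 ± 2.44) and MIEF2 (3.21 ± 1.496). The exon length used includes untranslated regions, and was 1668 nt for FIS1 and 6987 nt for MIEF1. The order of footprints therefore also depends on the length of these regions. The ranges of neighbours below FIS1 and DNM1L all overlapped down the order. The highest RHOT1 and MIEF2 values, 8.44 and 5.94 RPKM, both came from the total input of cytosol replicate 2.

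**Figure D1:**
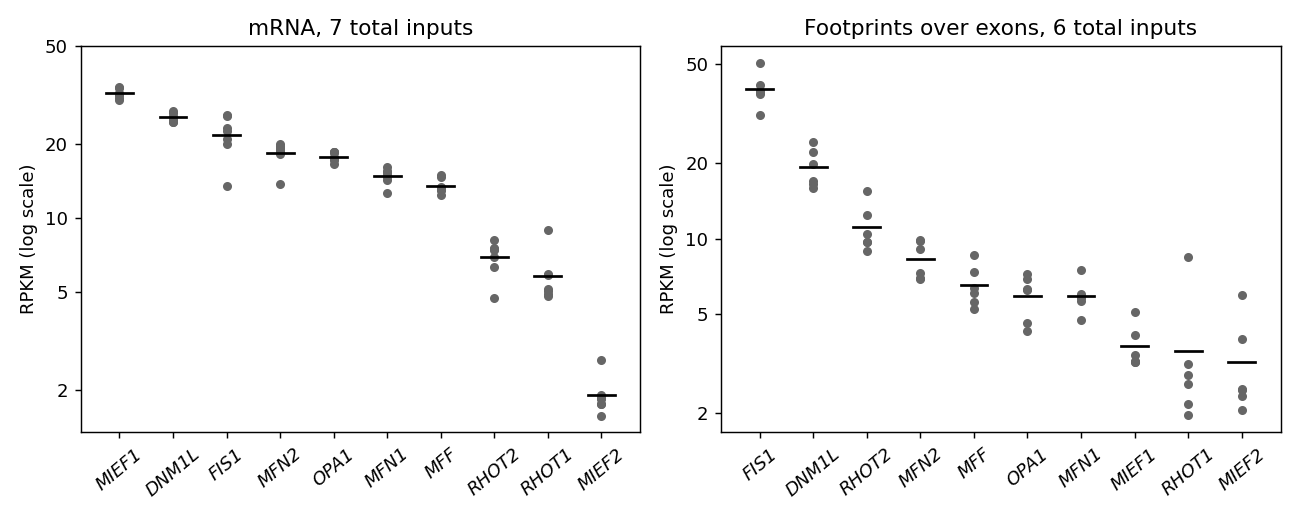
RPKM of each member in every total input library, on a log scale, for mRNA (left, 7 RNA-seq libraries) and footprints over exons (right, 6 ribosome profiling libraries), ordered by the mean (bar). MIEF1 is first in mRNA at 32.1 and eighth in footprints at 3.71, and FIS1 is first in footprints at 39.6. Exon length includes untranslated regions, so the footprint order also depends on their length.

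The deposited CDS counts cover a member unevenly, because a position counts as CDS only where every annotated transcript codes there. Of the exon footprints in the 6 total inputs, the CDS region held 64.9% for RHOT2, 63.2% for MFF, 58.9% for MFN1, 53.5% for MIEF2, 42.4% for FIS1 and 23.8% for MIEF1. It held 6.33% for MFN2, 4.90% for RHOT1, 3.59% for DNM1L and 0.0550% for OPA1, of whose 5452 exon footprints 3 were in the CDS region. With a minimum of 64 footprints in both total inputs, CDS counts could test 5 members at the OMM (MFN1, FIS1, MFF, MIEF1, RHOT2), 6 at the ER (these and DNM1L) and 5 in the cytosol (MFN1, FIS1, MFF, MIEF2, RHOT2). Counts over all exons could test all 10 members at each location, so both are given. Exon counts also hold footprints from untranslated regions.

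At the OMM, ribosomes on FIS1 and MFF were enriched and those on the mitofusins and DNM1L were not. OPA1 did not pass either, but in exon counts it was called enriched under other scalings. In CDS counts, FIS1 was enriched 2.32-fold and MFF 1.89-fold, and 2 of the 5 tested members passed, both upward, where 17.0% of 6742 tested entries passed upward and 45.9% downward. In exon counts, 3 of 10 members were enriched and 4 depleted, where 16.5% of 8440 entries were enriched and 49.0% depleted. The median log2 enrichment was -0.07 for the 5 members in CDS counts and -0.23 for the 10 in exon counts, against -0.38 over all tested entries in either. Values are relative to library totals; with TMM scaling, which sets the bulk of genes near 0, the calls over all entries were 1742 up and 1646 down in place of 1144 up and 3094 down in CDS counts, and 2244 up and 2160 down in place of 1391 up and 4134 down in exon counts.

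FIS1, a small receptor-like adaptor of the fission machinery, had 258 CDS footprints in the total input and 125 in the pulldown of OMM replicate 1, and 316 and 328 in replicate 2. The pulldown libraries were smaller, and the log2 ratios of RPKM were 1.24 and 1.17, against medians over entries of -0.40 and -0.38. RPKM is scaled by all footprints on transcripts and the fits by the totals of the counts tested, so ratios and fitted values differ by a shift per library. The fitted log2 enrichment was 1.22 ± 0.14 (SE; edgeR quasi-likelihood, adjusted p = 1.65e-06, n = 2), and in exon counts it was 1.28 ± 0.11 (adjusted p = 3.33e-08). FIS1 was thus above the median entry at the OMM in both replicates and in both kinds of count.

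MFF, a tail-anchored receptor that recruits DNM1L, had 197 and 301 CDS footprints in the OMM total inputs and 81 and 248 in the pulldowns. Its log2 ratios of RPKM were 1.00 and 0.83. The fitted enrichment was 0.92 ± 0.15 (SE; edgeR, adjusted p = 4.79e-05, n = 2) in CDS counts and 0.68 ± 0.12 (adjusted p = 1.04e-04) in exon counts. Both replicates lay above the medians, and MFF was below FIS1 in each.

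The paralogous receptors MIEF1 and MIEF2, which bind DNM1L through cytosolic domains and are anchored near the N-terminus, gave different values in exon counts at the OMM; the difference between these genes was not tested. MIEF2 had 144 and 93 exon footprints in the total inputs and 54 and 109 in the pulldowns, with log2 ratios of 0.86 and 1.34. Its fitted exon enrichment was 1.14 ± 0.19 (SE; edgeR, adjusted p = 5.49e-05, n = 2). MIEF1 had 388 and 344 exon footprints in the total inputs and 65 and 145 in the pulldowns, with log2 ratios of -0.30 and -0.13. It passed no test at the OMM, with -0.19 ± 0.14 in exon counts (adjusted p = 0.243) and -0.23 ± 0.26 in CDS counts (adjusted p = 0.442). In exon counts every MIEF2 replicate lay above every MIEF1 replicate. At the OMM, positions assigned to neither CDS nor untranslated regions held 66.7% and 80.4% of the MIEF2 pulldown footprints. In the total inputs they held 46.4% and 31.4%. In CDS counts, which were too few for a test, the MIEF2 ratios at the OMM were 0.19 and -0.35, from 16 and 20 pulldown footprints, and those of MIEF1 were -0.29 and -0.24, from 18 and 34, so the ranges overlapped and the OMM enrichment of MIEF2 is seen in exon counts and not in CDS counts.

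DNM1L, the dynamin-related GTPase that constricts mitochondria from the cytosolic side, was depleted at the OMM in exon counts. It had 1366 and 1660 exon footprints in the total inputs and 164 and 436 in the pulldowns, with log2 ratios of -0.78 and -0.82. The fitted enrichment was -0.79 ± 0.10 (SE; edgeR, adjusted p = 4.61e-06, n = 2), below the median of all entries by 0.40 on the log2 scale. The same gene had ratios of 0.09 and 0.35 in the cytosol, and the difference between OMM and cytosol was -0.85 ± 0.14 (adjusted p = 5.50e-05). In CDS counts, too few for a test at the OMM, DNM1L had ratios of -0.30 and -0.48 there, from 7 and 22 pulldown footprints. The medians over entries were -0.40 and -0.38, so these CDS ratios lay on either side of them.

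In exon counts, the mitofusins were depleted or near the median. MFN2, which also tethers mitochondria to the ER, had log2 ratios of -0.60 and -0.74 at the OMM from 134 and 275 pulldown footprints over exons, with a fitted value of -0.67 ± 0.10 (SE; edgeR, adjusted p = 2.88e-05, n = 2). The MFN2 call held with TMM scaling (-0.34) and was lost with DESeq2, at -0.30 (adjusted p = 0.0648). In CDS counts, too few for a test, MFN2 had ratios of -0.07 and 0.47, from 9 and 39 pulldown footprints. The medians over entries were -0.40 and -0.38, so the MFN2 depletion was seen in exon counts and not in CDS counts. MFN1, from 37 and 109 pulldown footprints over exons, had ratios of -0.52 and -0.33 and a fitted value of -0.39 ± 0.16 (adjusted p = 0.0383), 0.01 below the median of all entries, and the same size was not called in CDS counts (-0.39 ± 0.25, adjusted p = 0.175). The MFN1 exon call was lost with TMM scaling, at -0.06 (adjusted p = 0.784), with DESeq2 (-0.034), without OMM replicate 1 (-0.33), without OMM replicate 2 (-0.50) and without either ER replicate (-0.40).

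OPA1, the inner membrane GTPase that carries a presequence and enters through the import channels, stood apart from the mitofusins. Its OMM exon ratios were 0.11 and 0.14, from 601 and 760 footprints in the total inputs. The fitted OMM value of 0.14 ± 0.10 did not pass (SE; edgeR, adjusted p = 0.253, n = 2), but it lay 0.52 above the median of all entries. With TMM scaling it was 0.47 (edgeR, adjusted p = 0.00140), and with DESeq2 it was 0.50 (adjusted p = 0.00125). At the ER the OPA1 ratios were -0.70 and -0.82. The difference between OMM and ER was 1.10 ± 0.14 (adjusted p = 1.95e-06), a 2.15-fold higher enrichment at the OMM.

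The tail-anchored Miro GTPases were not enriched at the OMM. RHOT1 had exon ratios of -1.18 and -0.24, the first from 16 pulldown footprints, and a fitted value of -0.49 ± 0.20 (SE; edgeR, adjusted p = 0.0389, n = 2). Without OMM replicate 1, it was -0.23 (adjusted p = 0.364), and with TMM scaling and with DESeq2 it was -0.16 (adjusted p = 0.540 and 0.639). RHOT2, with 870 and 593 exon footprints in the total inputs, had ratios of -0.17 and -0.38 and a fitted value of -0.26 ± 0.13 (adjusted p = 0.0741), which passed without either cytosol replicate (-0.26), and in CDS counts -0.07 ± 0.15 (adjusted p = 0.714). Its 95% interval in CDS counts, -0.37 to 0.23, lies below the values of FIS1 and MFF.

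**Figure D2:**
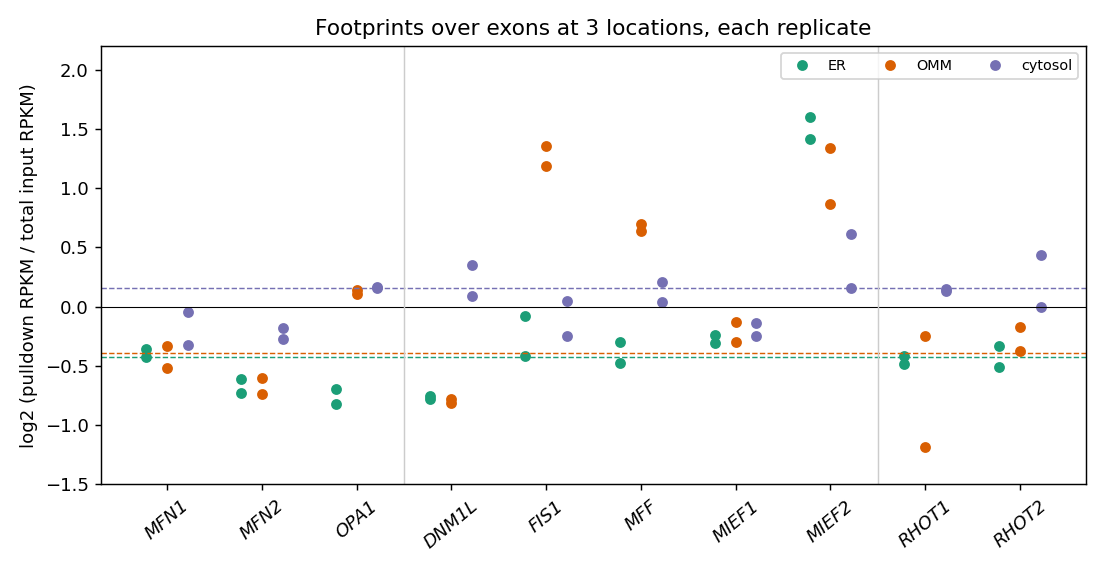
log2 ratio of exon RPKM, pulldown over total input, for each member at the ER, OMM and cytosol; points are the 2 replicates of a location, and dashed lines the median over all entries averaged over replicates. FIS1 (1.36 and 1.19) and MFF (0.70 and 0.64) are higher at the OMM than at the ER and in the cytosol, MIEF2 is high at the OMM and ER, and OPA1 is higher at the OMM than at the ER.

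At the ER, MIEF2 was the one member enriched in exon counts. It was enriched 2.47-fold, with 260 and 95 footprints in the total inputs, 933 and 403 in the pulldowns and log2 ratios of 1.599 and 1.41. Its fitted value was 1.30 ± 0.14 (SE; edgeR, adjusted p = 1.70e-07, n = 2), and its CDS ratios, 1.56 and 1.63, pointed the same way, although one total input held only 38 CDS footprints. Its OMM and ER enrichments over exons differed by -0.17 ± 0.24 (adjusted p = 0.574, 95% interval -0.63 to 0.29), and its cytosol value of 0.24 ± 0.14 did not pass (adjusted p = 0.315). The difference between OMM and cytosol passed, at 0.90 ± 0.23 (edgeR, adjusted p = 0.00343), but not without OMM replicate 2, at 0.66 (adjusted p = 0.102).

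The other 9 members were depleted at the ER in exon counts relative to library totals, by -0.45 (FIS1) to -0.97 (DNM1L), where 72.0% of 9004 entries were depleted and 20.9% enriched. In CDS counts 3 of the 6 tested members passed, all downward (RHOT2, MFF and MFN1), where 72.0% of 7390 entries passed downward and 19.9% upward. Without either ER replicate MFN1 kept its value of -0.55 and lost its call. These directions rest on the scale: with TMM the calls over all entries were 2754 up and 2323 down in exon counts, in place of 1878 up and 6481 down, and 2160 up and 1876 down in CDS counts, in place of 1469 up and 5322 down. With TMM, 4 members were called in exon counts: MFN2, OPA1 and DNM1L lower and MIEF2 higher. In CDS counts under TMM none of the 3 calls held, and all 3 values were above 0. MIEF1, which had CDS ratios of 0.74 and 0.28 and a fitted 0.24 ± 0.18 (adjusted p = 0.223), was then called higher, at 0.89 (edgeR with TMM, adjusted p = 8.04e-04) and 0.84 (DESeq2, adjusted p = 0.00535). FIS1, at -0.16 ± 0.12 in CDS counts (adjusted p = 0.222), was also called higher, at 0.49 (edgeR with TMM, adjusted p = 0.00394) and 0.45 (DESeq2, adjusted p = 0.0108). In exon counts neither MIEF1 nor FIS1 was called higher at the ER under these scalings. Relative to the median of all entries in exon counts, DNM1L was 0.33 lower, OPA1 0.32 lower and MFN2 0.23 lower at the ER. In CDS counts DNM1L lay 0.32 above the median, at -0.36 ± 0.21 (SE; edgeR, adjusted p = 0.103). OPA1 and MFN2 were not tested in CDS counts.

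In the cytosol, no member passed in CDS counts, where 5 were tested, values ran from -0.17 to 0.18, and 2.04% of 7173 entries were called higher and 5.95% lower (edgeR). None of these 5 had an unadjusted p below 0.05, as 21.0% of all entries did, and none was called with DESeq2. In exon counts MFN2 alone passed, at -0.38 ± 0.09 (SE; edgeR, adjusted p = 0.0103, n = 2), where 3.57% of 8983 entries were called higher and 6.84% lower. With DESeq2 it was -0.34 (adjusted p = 0.0611). Without cytosol replicate 2, MFN1 (-0.49) and FIS1 (-0.42) were called lower as well, and 1094 entries in place of 935.

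Tests of the differences between locations called the same direction for FIS1 and MFF in both kinds of count. FIS1 was higher at the OMM than at the ER by 1.38 ± 0.19 in CDS counts (SE; edgeR, adjusted p = 6.34e-06) and than in the cytosol by 1.35 ± 0.19 (adjusted p = 1.82e-05). MFF was higher at the OMM than at the ER by 1.52 ± 0.19 (adjusted p = 2.33e-06) and than in the cytosol by 0.79 ± 0.20 (adjusted p = 0.00267). For OMM against ER these were 2 of 5 members tested in CDS counts and, with OPA1, 3 of 10 in exon counts, where 31.0% of 6691 and 30.2% of 8404 entries were called higher and 18.5% and 20.9% lower. For OMM against cytosol they were 2 of 4 in CDS counts, where 16.5% of 6482 entries were called higher and 39.7% lower. In exon counts 3 of 10 were called higher (FIS1, MFF and MIEF2) and DNM1L lower, where 15.9% of 8264 entries were called higher and 41.9% lower. With TMM, OPA1 (0.45, adjusted p = 0.0128) and MIEF1 (0.47, adjusted p = 0.0368) were called higher as well, and with DESeq2 OPA1 was (0.46, adjusted p = 0.0398). With TMM, the OMM against ER calls were 949 up and 1515 down in place of 2075 up and 1241 down in CDS counts, and 1307 up and 2133 down in place of 2536 up and 1759 down in exon counts. The OMM against cytosol calls were 1588 up and 1347 down in place of 1070 up and 2572 down in CDS counts, and 2070 up and 1864 down in place of 1311 up and 3466 down in exon counts. Without the term that pairs pulldown with total input, FIS1 (1.31) and MFF (0.80) lost their OMM against cytosol calls in CDS counts. In exon counts MFF (0.73), MIEF2 (0.89) and DNM1L (-0.85) lost theirs.

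MIEF1 carried many of its footprints in the annotated 5′ UTR. Upstream of the MiD51 coding sequence, MIEF1 mRNA is known to hold another translated reading frame. Over the 6 total inputs, 37.1% of the MIEF1 exon footprints lay in the 5′ UTR region, against 30.2% for FIS1, 15.9% for MFN1, 15.0% for MFN2 and 0.557% for RHOT2. GENCODE 44 lists that reading frame as a gene of its own, MIURF, at chr22:39504231-39504443 on the plus strand within MIEF1 5′ UTR exons. The deposited tables give MIURF a length of 0 and 0 counts, so whether the MIEF1 5′ UTR counts include that frame was not tested.

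In the pulldowns, these upstream MIEF1 footprints were few. At the ER they numbered 340 and 92 in the total inputs and 74 and 51 in the pulldowns, while the CDS counts went from 144 to 285 and from 86 to 165. Scaled to CDS library totals, the log2 ratio of the MIEF1 5′ UTR was -2.81 and -1.72 at the ER and that of its CDS 0.37 and 0.08. At the OMM the 5′ UTR ratios were -2.69, from 3 pulldown footprints, and -0.77, and in the cytosol -2.52 and -2.27. The MIEF1 5′ UTR ratio was therefore below its CDS ratio in all 5 library pairs where both could be taken, by 0.53 to 3.19 on the log2 scale. A lower 5′ UTR ratio was common: among entries with 64 footprints in both regions, 63.1% to 96.1% had one, depending on the library, with median differences from -0.29 to -1.54. The MIEF1 difference fell at percentiles 1.99 and 13.1 of these entries at the ER, 2.93 and 38.5 at the OMM and 3.43 in cytosol replicate 1.

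FIS1 also had a lower ratio in the 5′ UTR than in the CDS. Its OMM CDS ratios were 1.27 and 1.18 on this scale, and its 5′ UTR ratios were 0.32 and -0.23, from 163 and 243 footprints in the total inputs and 41 and 95 in the pulldowns. The FIS1 5′ UTR lay below its CDS in all 6 library pairs, as it did for most entries. The FIS1 difference fell at percentiles 30.5 and 17.1 of all entries at the ER, 25.2 and 12.6 at the OMM and 48.8 and 14.7 in the cytosol. OPA1 had 5′ UTR ratios of 0.20 and -0.58 in the cytosol, where the median entry had -1.03 and -1.54, but it had too few CDS footprints for a ratio to set beside them.

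**Figure D3:**
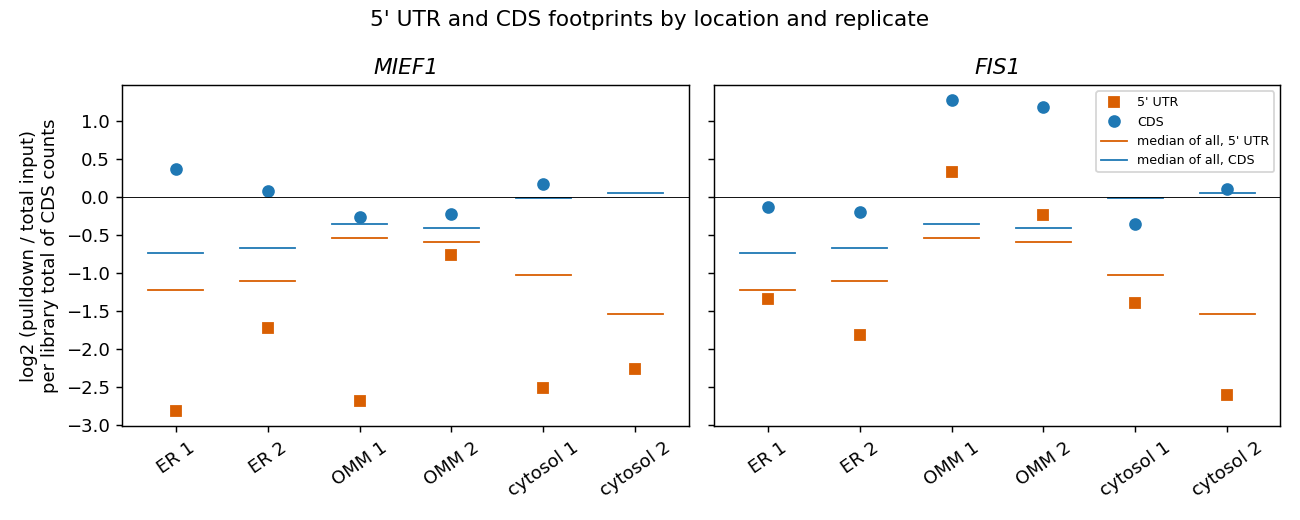
log2 ratio of pulldown to total input, scaled by library totals of CDS counts, for footprints in the 5′ UTR (squares) and CDS (circles) of MIEF1 and FIS1 in each location and replicate; short lines are medians over entries with 64 footprints in both regions, and the MIEF1 CDS in cytosol replicate 2 is left out at 45 footprints. The MIEF1 5′ UTR is at -2.81 in ER replicate 1 where its CDS is at 0.37.

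In RNA-seq of WT cells, the mRNAs of FIS1, MIEF2 and MFF were recovered at the OMM above the total input, and those of all GTPases below it. Of the 10 members 3 were enriched and 6 depleted, where 20.2% of 13856 genes were enriched and 45.6% depleted. The median of the members was -0.46 against -0.28 over all genes. With TMM scaling the calls over all genes were 4296 up and 3847 down in place of 2803 up and 6324 down, and RHOT2 (-0.03, adjusted p = 0.811; DESeq2, -0.04) was no longer called. RHOT2 also lost its call without WT replicate 1 (-0.41) and without WT replicate 2 (-0.24).

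FIS1 mRNA stood at 46.7 and 41.4 CPM in the WT total inputs and at 146 and 150 CPM in the pulldowns. The log2 ratios were 1.65 and 1.85, with a fitted 3.36-fold enrichment (log2 1.75 ± 0.10, SE; edgeR, adjusted p = 9.07e-06, n = 2). MIEF2 went from 7.25 and 6.14 CPM to 14.2 and 11.7, a log2 enrichment of 0.95 ± 0.17 (adjusted p = 0.00128). MFF went from 76.4 and 81.0 CPM to 112 and 123, a log2 enrichment of 0.58 ± 0.10 (adjusted p = 0.00103). For these receptors, the pulldowns lay above the total inputs in both replicates.

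The depleted members were led by MFN1, at -0.80 ± 0.08 (SE; edgeR, adjusted p = 7.38e-05), and DNM1L, at -0.73 ± 0.08 (adjusted p = 1.37e-04). RHOT1 was at -0.68 ± 0.09, MFN2 at -0.62 ± 0.09, OPA1 at -0.59 ± 0.09 and RHOT2 at -0.32 ± 0.09. MIEF1 did not pass, at -0.21 ± 0.10 (adjusted p = 0.0834). OPA1 had different positions in the assays, with footprints over exons 0.52 above the median of all entries at the OMM and mRNA 0.30 below it; the assays were not compared by a test.

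In the AKAP1 null line, the OMM enrichment of FIS1 and MFF mRNA was lower than in WT and that of OPA1 and MFN1 higher, with MFN1 less depleted but not enriched. Of the 10 members, 2 were lower and 2 higher than in WT by the test of the difference, where 7.96% of 13856 genes were lower and 6.52% higher. The median of the members was 0.33 against 0.19 over all genes. With TMM, the calls over all genes were 1424 lower and 285 higher in place of 1103 and 903, and the 4 member calls held with TMM and with DESeq2.

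FIS1 mRNA fell from 146 and 150 CPM in the WT pulldowns to 60.3 and 48.7 in the AKAP1 null pulldowns, with 46.4 and 37.6 CPM in the AKAP1 null total inputs. Its log2 ratios were 0.38 and 0.37 in the null line, both below the WT ratios. The difference was -1.37 ± 0.14 (SE; edgeR, adjusted p = 6.13e-04, n = 2 against 2), a 2.59-fold lower enrichment, and -1.56 relative to the median of all genes. The call for the difference held when each replicate was left out in turn, at -1.27 to -1.48. Within the AKAP1 null line, FIS1 (0.37 ± 0.10, adjusted p = 0.0173), MIEF2 and OPA1 were enriched and MFN2, DNM1L and RHOT1 depleted, where 13.9% of genes were enriched and 28.1% depleted (with TMM, 2772 up and 2865 down in place of 1930 and 3892). The DNM1L and RHOT1 calls were lost with TMM (adjusted p = 0.0615 and 0.0667), and those of MFN2, DNM1L and RHOT1 with DESeq2 (adjusted p = 0.0527, 0.0662 and 0.179). MIEF1, at 0.20 (adjusted p = 0.130), was called enriched with TMM, at 0.33 (adjusted p = 0.0366), and with DESeq2, at 0.34 (adjusted p = 0.0110). Without AKAP1 null replicate 1 or replicate 2, MIEF2 alone of these 6 was called, and over all genes 1681 and 1314 were called in place of 5822.

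MFF ratios were -0.03 and 0.03 in the AKAP1 null line, from 88.1 and 81.1 CPM in the pulldowns and 90.2 and 79.7 in the total inputs. The difference from WT was -0.59 ± 0.14 (SE; edgeR, adjusted p = 0.0288, n = 2 against 2). It was -0.56 to -0.62 and no longer called when a WT or AKAP1 null replicate was left out, where 489 to 744 genes were called in place of 2006. The third enriched receptor mRNA, MIEF2, moved the other way, with null ratios of 1.20 and 1.87 and a difference of 0.58 ± 0.24 that did not pass (adjusted p = 0.129).

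OPA1 moved from 99.9 and 103 CPM in the WT pulldowns to 188 and 227 in the AKAP1 null ones, with 149 and 155 CPM in the WT total inputs and 159 and 168 in the null ones. Its ratios were 0.24 and 0.44 in the null line and -0.58 and -0.59 in WT, with no overlap. The difference was 0.93 ± 0.13 (SE; edgeR, adjusted p = 0.00259, n = 2 against 2), and in the null line OPA1 was itself enriched, at 0.34 ± 0.09 (adjusted p = 0.0195). Without AKAP1 null replicate 2 the difference was 0.83 (adjusted p = 0.05003), and without WT replicate 2 it was 0.92 (adjusted p = 0.0514).

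MFN1 rose by 0.64 ± 0.11 (SE; edgeR, adjusted p = 0.00784), from ratios of -0.81 and -0.79 in WT to -0.14 and -0.18 in the null line. Its null value, -0.16 ± 0.08, lay 0.04 below the median of all genes. Leaving out a WT or AKAP1 null replicate gave 0.62 to 0.67 with no call. The other members, DNM1L, MFN2, MIEF1, MIEF2, RHOT1 and RHOT2, had differences of 0.16 to 0.58 that did not pass. Without either LARP4 null replicate, whose spread the fit shares, 8 members were called, with DNM1L, MIEF1, MIEF2 and RHOT1 added, all higher. Calls over all 13856 genes then rose too, from 2006 (903 higher) to 6482 and 6486 (4538 and 4535 higher). With the replicate number as a block on the pulldown effect, as for paired samples, the same number of members, 4, was called.

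**Figure D4:**
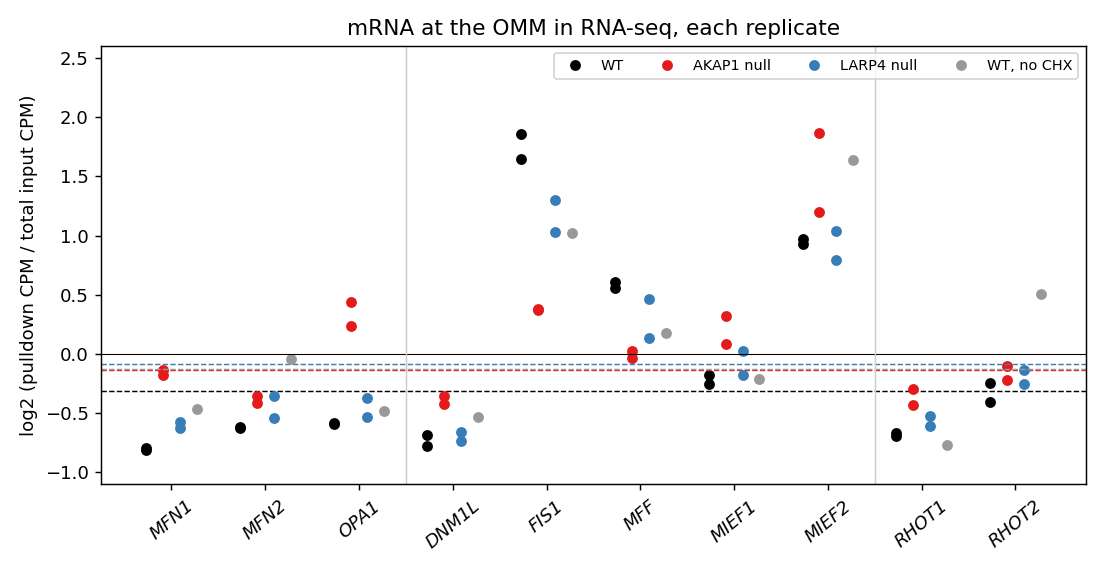
log2 ratio of CPM, pulldown over total input, of each member in WT, AKAP1 null and LARP4 null lines and in cells without CHX (WT, no CHX in the key). Points are replicates, and dashed lines are the medians over genes in WT and the null lines and in the library pair without CHX. FIS1 falls from 1.65 and 1.85 in WT to 0.38 and 0.37 in the AKAP1 null line, and OPA1 goes from -0.58 and -0.59 to 0.24 and 0.44.

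In the LARP4 null line, no member differed from WT in OMM enrichment by edgeR, and neither did any of 13856 genes, of which 16.4% (2270) had an unadjusted p below 0.05. DESeq2 called 495 genes, 491 of them lower, and FIS1 was among them at -0.79 (adjusted p = 0.00177). FIS1 mRNA stood at 24.1 and 35.8 CPM in the total inputs and 59.6 and 73.1 in the pulldowns, with ratios of 1.30 and 1.03, both below WT. The fitted difference was -0.59 ± 0.14 (SE; edgeR, adjusted p = 0.217, 95% interval -0.86 to -0.31, n = 2 against 2). Without LARP4 null replicate 1 it was -0.72 (adjusted p = 1.10e-04), and MFF was called as well, at -0.45 (adjusted p = 0.00465). Over all genes 5659 were then called, 4517 higher and 1142 lower, in place of 0. Without LARP4 null replicate 2 FIS1 was at -0.45 (adjusted p = 0.148), and 96 genes were called. MFF had ratios of 0.47 and 0.14 and a difference of -0.28 ± 0.14 (adjusted p = 0.311). The other 8 members lay between -0.03 and 0.20. Within the LARP4 null line, FIS1 (1.16 ± 0.10), MIEF2 (0.92 ± 0.17) and MFF (0.30 ± 0.10) were enriched and 5 members depleted, where 22.8% of genes were enriched and 30.0% depleted (with TMM, 3870 up and 3462 down in place of 3161 and 4151). The MFF call was lost without LARP4 null replicate 1, at 0.14, and without any WT or AKAP1 null replicate, at 0.30.

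**Figure D5:**
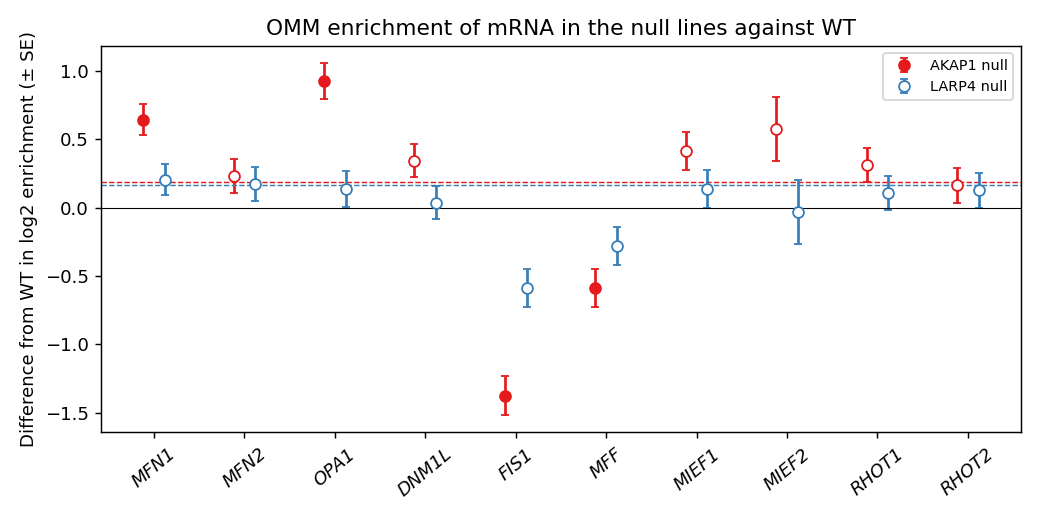
Difference from WT in fitted log2 OMM enrichment of mRNA for each member in the AKAP1 null and LARP4 null lines, with SE bars; filled points have an adjusted p below 0.05, and dashed lines are the medians over all genes. FIS1 is lowest in both lines, at -1.37 and -0.59, and OPA1 is highest in the AKAP1 null line at 0.93.

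The comparisons of both null lines share the WT libraries. In total input, which measures mRNA level, no member passed in either line. Over all genes edgeR called 0 of 13977 in the AKAP1 null line (3.50% with an unadjusted p below 0.05, and 15 by DESeq2) and 2 in the LARP4 null line (0.00715% higher and 0.00715% lower, and 3.64% with an unadjusted p below 0.05). In the AKAP1 null line member differences ran from -0.16 (RHOT1) to 0.40 (MIEF2), with FIS1 at -0.06 ± 0.20 and OPA1 at 0.11 ± 0.10 (SE). In the LARP4 null line FIS1 was at -0.53 ± 0.20 (edgeR, adjusted p = 0.990) and the others between -0.15 and 0.13. Of the targeted genes, AKAP1 was at -2.15 ± 0.22 in its null line (adjusted p = 0.242) and LARP4 at -1.56 ± 0.12 in its own (adjusted p = 0.0405).

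Without CHX, in 1 replicate and with shorter labelling, FIS1 had a log2 ratio of 1.02 and MFF of 0.17, both below both WT replicates with CHX. MIEF2 was at 1.64, RHOT2 at 0.51 and MFN2 at -0.04, all above both WT replicates. RHOT2 had 24.4 CPM in the total input without CHX, against 42.0 and 38.4 in WT, and 34.6 in the pulldown, against 35.5 and 29.0. The higher RHOT2 ratio thus came with a lower total input and a pulldown between the WT values. MFN2 had 140 CPM in the total input, against 194 and 187, and 137 in the pulldown, against 127 and 121. MIEF2 had 6.87 CPM in the total input, against 7.25 and 6.14, and 21.4 in the pulldown, against 14.2 and 11.7. OPA1 was at -0.48, MFN1 at -0.46 and DNM1L at -0.53, also above both WT values by 0.11 to 0.34 relative to their mean, where the median gene was 0.16 higher. RHOT1, at -0.76, lay below both WT values, and MIEF1 at -0.21 lay between the WT values. The order of the receptors changed, with MIEF2 above FIS1. These are values of 1 library pair and have no replicate check. The label of the pair names no genotype or gRNA, so whether its cells were the WT line is not known.

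Other genes of mitochondrial dynamics were followed in a wider list of 36, in which 20 could be tested in CDS counts at the OMM. Of these 7 were enriched and 7 depleted, where 17.0% of 6742 tested entries were enriched and 45.9% depleted. Their median was -0.05, against -0.38 over all entries. The largest rises were ARMCX3, a Miro partner with an N-terminal anchor (1.65 ± 0.14, SE; edgeR, adjusted p = 2.49e-08), MIGA1, a fusion factor of the outer membrane (1.17 ± 0.16, adjusted p = 8.43e-06), and MTFR1, a fission regulator (0.65 ± 0.18, adjusted p = 0.00496). The largest falls were the kinesin motors KIF5A (-1.15 ± 0.32, adjusted p = 0.00509) and KIF1B (-0.94 ± 0.13, adjusted p = 9.69e-06), and SPIRE1, an actin nucleator (-0.85 ± 0.28, adjusted p = 0.0127). By role, 4 of 5 fusion genes were enriched and 0 depleted, 1 of 8 fission genes was enriched and 4 depleted, and 2 of 7 transport genes were enriched and 3 depleted.

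In the AKAP1 null line, 8 of 35 genes of the wider list were higher and 1 lower than in WT. Over all 13856 genes, 6.52% were higher and 7.96% lower. The median difference was 0.32 in the wider list and 0.19 over all genes. The largest rises were ARMCX3 (1.40 ± 0.17, SE; edgeR, adjusted p = 0.00125), OMA1, the protease that cleaves OPA1 under stress (1.26 ± 0.16, adjusted p = 0.00162), and MIGA1 (1.19 ± 0.16, adjusted p = 0.00236). The one fall was MTX1, a metaxin of the outer membrane (-0.66 ± 0.19, adjusted p = 0.0488). ARMCX3 and MIGA1, enriched at the OMM in footprints, thus moved with OPA1 and MFN1 and not with FIS1.

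Genes with a similar membrane topology or enzyme class were counted in the same way. Over all 6742 entries tested in OMM CDS counts, 17.0% were enriched and 45.9% depleted. For the AKAP1 null difference, 6.52% of 13856 genes were higher and 7.96% lower. Of 17 listed tail-anchored outer membrane genes 9 were tested in OMM CDS counts, with 3 enriched (TOMM7 at 2.12, BAX at 0.63 and CYB5B at 0.53) and 3 depleted, a median of 0.08. In the AKAP1 null line 3 of 15 were lower than in WT, the import subunits TOMM7 (-1.86), TOMM5 (-1.31) and TOMM22 (-1.15), and 1 was higher, BNIP3L (0.61). Of 12 other GTPases 6 were tested at the OMM, 0 enriched and 1 depleted, and of 11 tested for the AKAP1 null difference 0 were called. Among nuclear genes for mitochondrial proteins other than the members, 323 of 681 tested were enriched and 70 depleted in OMM CDS counts, a median of 0.33.

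The genes whose profile was most like that of a member were sought over the 13 enrichments per replicate, by the root mean square difference, among 6430 genes that passed the minimum in both assays. FIS1 was nearest to MRPL11, a mitochondrial ribosomal protein (0.144 on the log2 scale), MFF to CARHSP1 (0.154), RHOT2 to SLTM (0.156) and MFN1 to RABL3 (0.162). The other 6 members had too few CDS footprints for this search.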

How the data were processed

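For ribosome profiling, the authors aligned footprints of 27 to 36 nt to GRCh38 with TopHat (the submitters' processing notes also name Bowtie), ignored 13 nt at each end and assigned the rest to gene regions. They deposited estimated counts, which need not be whole and were rounded here for tests, and RPKM, whose denominator is all footprints on transcripts. For RNA-seq, the authors aligned reads with STAR and deposited counts from featureCounts; the deposited column named FPKM is 10 times FPKM, a score that was not used in tests. Strand use is not given in the sources used here, so reads of OPA1, DNM1L, MFF and RHOT1 cannot be told from those of overlapping antisense RNAs. From 3 to 7 broken lines per RNA-seq file were left out.

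Per replicate, enrichment is the log2 ratio of RPKM, or of CPM after adding 0.5 to each count. The test was the two-sided quasi-likelihood test of edgeR 4.0.16 in R 4.3.3 with Benjamini-Hochberg adjustment over all entries, and DESeq2 1.42.0 was an alternative. A call means an adjusted p under 0.05. All 12 libraries of an assay with CHX entered 1 fit with a term per lysate and a pulldown effect per location or genotype, scaled by library totals; total inputs alone were scaled by TMM. Entries of 1 gene with at least 64 footprints in each total input, or a mean of 64 RNA-seq counts, were tested. Each pulldown is paired with its total input by the shared lysate, and their replicate differences correlated with r of 0.629 to 0.879 over genes. Of all entries 57770 name 1 gene. Alternatives were TMM, DESeq2, other minimums, no term per lysate, exon counts, the replicate number as a block and leaving out each replicate; those of the exon counts were added after seeing the data. Fits were tested on simulated data. Members, lists and rules were chosen with earlier results of these data known: all members, the 3 largest rises and falls of the wider list, called and of 1 sign in every replicate or pairing, and the nearest gene of each member. TOMM7, TOMM5, TOMM22, BAX, CYB5B and BNIP3L were named after their values were seen. RNA-seq RPKM were computed from counts and gene length. Coordinates are from GENCODE 44, whose GRCh38 gene bounds equal those in the files for 8 of 10 members. Python 3.11.15, numpy 2.4.6, pandas 2.3.3, Biopython 1.88 and matplotlib 3.10.9 made the tables and figures.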

Additional observations from a re-analysis of the deposited data

Results flagged for a closer look

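Several members differed between locations by the test of the difference of pulldown effects (edgeR). For OMM against ER, the log2 differences in CDS counts were 1.52 for MFF and 1.38 for FIS1, and in exon counts 1.73 for FIS1, 1.27 for MFF and 1.10 for OPA1. For OMM against cytosol, they were 1.35 for FIS1 and 0.79 for MFF in CDS counts, and 1.54 for FIS1, 0.90 for MIEF2, 0.72 for MFF and -0.85 for DNM1L in exon counts.

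The AKAP1 null and WT lines differed in OMM enrichment by -1.37 for FIS1, -0.59 for MFF, 0.64 for MFN1 and 0.93 for OPA1. No group has more than 2 replicates, so single libraries were not tested for standing apart.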

How the results depend on the processing

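Groups of 2 replicates and the small OMM pulldowns, down to 3 footprints for the MIEF1 5′ UTR, limit all values, and intervals and p-values cover only the spread of these libraries. Under the alternatives, 166 counts of calls stayed close to the value reported and 28 moved. Of the values of single genes, 1505 kept their side of the threshold. With the sign kept, 81 lost a call and 39 gained one, and 15 changed sign with a call in either fit. Changes of sign where neither fit made a call are among the 1505 and were not counted apart. With exon counts in place of CDS counts, members called were 10 at the ER, 7 at the OMM, 1 in the cytosol and 4 for OMM against cytosol, against 3, 2, 0 and 2, and MIEF1 at the ER was at -0.49 in place of 0.24. With a minimum of 10, 5 members were called at the ER and 4 for OMM against cytosol, and with no minimum 5 at the ER. Without the term per lysate, that is with pulldown and total input not kept as a pair, CDS counts gave 0 at the ER and 0 for OMM against cytosol. Exon counts without that pairing gave 3 at the OMM, 0 in the cytosol and 1 for OMM against cytosol, and RNA-seq gave 3 in the AKAP1 null line.

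With exon counts, 4 members were called at the ER with DESeq2 and 4 with TMM scaling, and 0 in the cytosol with DESeq2. At the ER the following values turned positive in CDS counts: with DESeq2, RHOT2 to 0.10, MFF to 0.0035, MFN1 to 0.056 and FIS1 to 0.45, and with TMM, RHOT2 to 0.14, MFF to 0.041, MFN1 to 0.094 and FIS1 to 0.49. Of these FIS1 passed in both (adjusted p = 0.0108 and 0.00394), and MIEF1, positive in CDS counts throughout these fits, passed too, at 0.84 and 0.89 (adjusted p = 0.00535 and 8.04e-04). In exon counts they were MIEF1 at 0.087 and FIS1 at 0.12 with DESeq2, and MFF at 0.016, MIEF1 at 0.12, MFN1 at 0.014 and FIS1 at 0.16 with TMM. These scalings place the bulk of entries near 0. For LARP4 null against WT, 1 member was called with DESeq2 and 1 with no minimum. The cause of the other changes was not tested.

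With each replicate left out in turn, 1 to 3 members were called in the cytosol in exon counts, 1 to 7 in the AKAP1 null line, 1 to 8 for AKAP1 null against WT and 0 to 2 for LARP4 null against WT. With the replicate number as a block on the pulldown effect, 4 members were called for AKAP1 null against WT and 0 for LARP4 null against WT, and over all genes 1453 in place of 2006 were called for the former. The block changed no member call, and in total inputs 0 members were called with it. The replicate numbers are shared by the labels only. Alternatives of the exon counts were chosen after seeing the data.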
